A study of Homo sapiens with 4 samples.

Results

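The genes described here encode 7 transcription factors: POU3F1, POU3F2, POU3F3 and POU2F1 of the POU family, and FOXP1, FOXP2 and FOXP4 of the forkhead family. They were taken by name from the 20162 protein-coding genes of GENCODE 44 on GRCh37. The choice was made with earlier results of these data known, so high counts at them are not independent of it. For each, the binding of MEIS1 and MEIS2 was examined in the gene body extended by 250 kb on each side. A reproducible site is a peak region that ranked high in both replicates by the irreproducible discovery rate (IDR), and it was counted where its summit lay in the window. The windows held 25 of the 5169 reproducible MEIS sites, 120 of the 36796 peaks of replicate 1 and 158 of the 47449 peaks of replicate 2.

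MEIS binding had been mapped by ChIP-seq in hNSC, a commercially supplied human neural stem cell culture kept in serum-free medium. There were 2 MEIS ChIP samples and 2 Input samples, with no genetic change and no treatment in any of them, so no condition was compared with another. The protocol gives a mixture of an antibody to the A forms of MEIS1 and MEIS2 and an antibody to MEIS1, whereas the antibody label of the ChIP samples names only the former, and on either account a peak does not tell which of the proteins was bound. Peak positions carry no expression values, so the cell type was not checked against marker genes and it is unknown here which of the 7 genes the cells transcribe.

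POU factors bind DNA through a POU-specific domain joined to a homeodomain, and recognise octamer sequences such as ATGCAAAT. POU3F1, POU3F2 and POU3F3 are genes of the neural class of this family, each with 1 exon in its canonical transcript. POU3F2 and POU3F3 act in cortical progenitors and in the making of upper-layer neurons, and POU3F1 also in Schwann cells, while POU2F1 is made in most tissues. FOXP proteins bind DNA as dimers through a forkhead domain and mostly repress transcription. FOXP2 is known for its part in speech and language, FOXP1 for striatal and cortical neurons, and FOXP4 is a more widely expressed relative. MEIS proteins are homeodomain factors that bind the core TGACAG, often beside PBX.

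All 7 genes had at least 1 reproducible site in their window, where 47.5% of all protein-coding genes did. At least 3 sites were found at 6 of the 7, against 8.68% of all protein-coding genes. FOXP2 and POU3F2 had the most, with 5 sites each, followed by POU3F3 and POU2F1 with 4, POU3F1 and FOXP1 with 3, and FOXP4 with 1. Longer genes have longer windows, so each gene was set beside the 200 protein-coding genes nearest to it in body length, leaving out the 7. Windows of neighbouring genes overlap and can share sites, so such counts are not independent, and they are given as descriptions with no test.

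The 3 POU3F genes chosen here stood high among genes of their length, and the FOXP genes less so. The other POU3F gene, POU3F4, was not among those chosen and had 0 sites. Of the 200 genes of like length, with bodies from 4.70 to 5.07 kb, 1 had as many sites as the 5 at POU3F2 and none had more. As many sites as the 4 at POU3F3 or more were found at 2 of 200 genes, and as many as the 3 at POU3F1 or more at 6 of 200. The median was 0 sites for all these short genes. For POU2F1, 16 of 200 genes between 197 and 216 kb had at least 4 sites, and their median was 1. For FOXP2, 30 of 200 genes between 477 and 737 kb had at least 5 sites, with a median of 2. FOXP1 with its 3 sites was matched or passed by 76 of 200 genes between 490 and 768 kb, whose median was 2. FOXP4 with its only site was matched or passed by 94 of 200 genes between 54.7 and 57.3 kb, whose median was 0. All these standings are for the 250 kb extension. At 100 kb POU3F2 had 0 sites in place of 5, and the comparison genes were not counted there.

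The POU3F2 and POU3F3 windows were poor in genes. Each held 2 canonical starts of protein-coding genes (the start of the canonical transcript of a gene), where the genes of like length had a median of 13 and 12. Among the 289 other protein-coding genes under 10 kb with 2 such starts or fewer in their window, a comparison chosen after the counts were seen, 9 (3.11%) had at least 5 sites and 13 (4.50%) at least 4. The same comparison for POU3F1, whose window held 9 starts, gave 111 of 1821 genes (6.10%) with at least 3 sites.

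**Figure D1:**
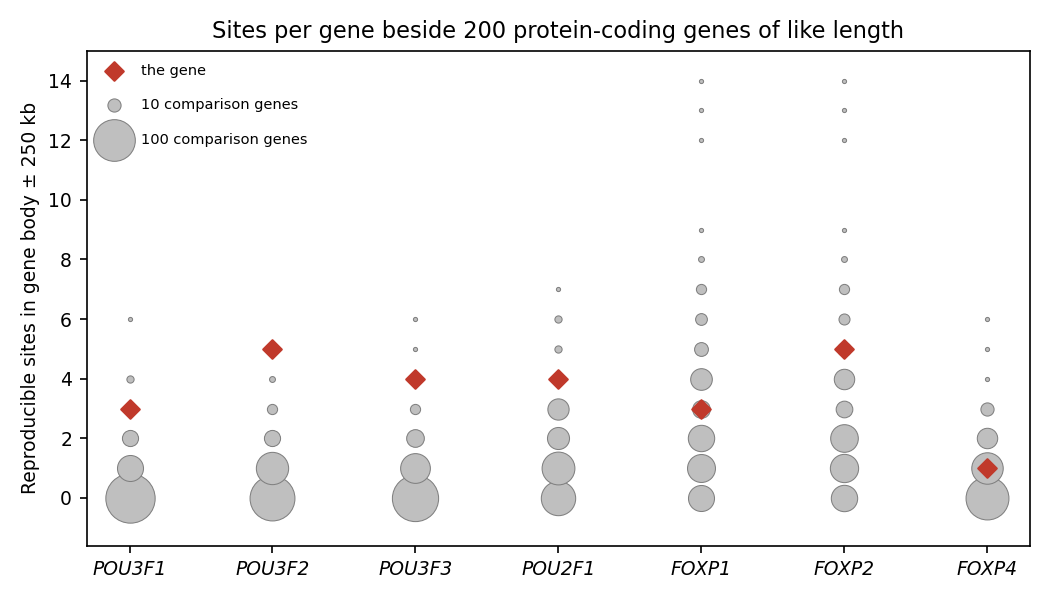
Reproducible MEIS sites in the gene body extended by 250 kb on each side (vertical axis, number of sites) for each of the 7 genes (red diamonds), with grey circles whose area shows how many of the 200 protein-coding genes of like body length had that number. The diamonds of POU3F2 at 5 and POU3F3 at 4 lie near the top of their columns. That of FOXP4 at 1 lies with 57 of its comparison genes, above the 106 that had 0.

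The POU and FOXP genes differed in where their sites lay. At the 4 POU genes, 14 of 16 sites lay upstream of the canonical start of the gene. Only 2 of the 16 lay in the annotated gene body, and 1 of them, at POU3F3, is also upstream of the canonical start, since the annotated gene begins before it. At the 3 FOXP genes, 8 of 9 sites lay in the gene body, of which 1, at FOXP2, was upstream of the canonical start. The POU3F genes are short, so few sites could fall within them. The bodies of FOXP1 and FOXP2, at 629 and 607 kb, fill much of their windows, so many could. The body of POU2F1, at 206 kb, held 1 of its 4 sites. The place of sites at genes of like length was not compared, so the split is not set apart from gene length. No summit of the 25 fell in an annotated exon of any gene. The nearest canonical start of a protein-coding gene was that of the named gene for 20 of the 25 sites, and of another gene for 1 site at POU3F1, 1 at POU2F1 and 3 at FOXP2.

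**Figure D2:**
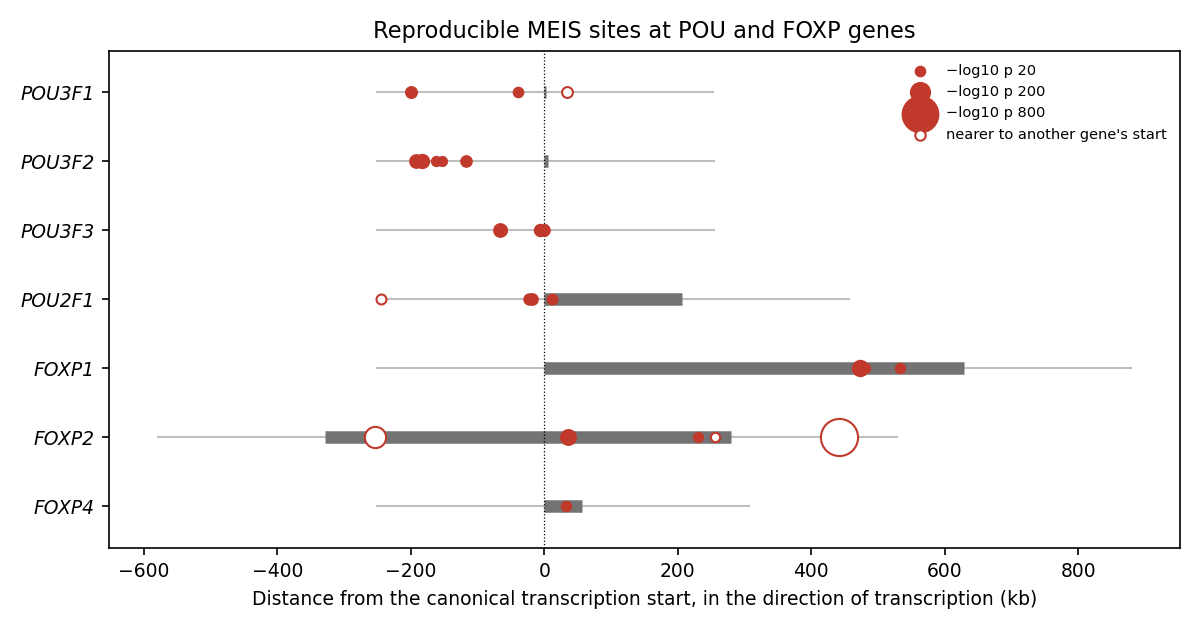
Position of the 25 reproducible sites (circles) by distance from the canonical start of each gene in kb, counted in the direction of transcription, with the gene body as a thick grey bar and the 250 kb extensions as a thin line. Circle area grows with the −log10 p of the site, and open circles are sites nearer to the start of another protein-coding gene. Sites of POU3F2 lie 118 to 192 kb upstream, and the strongest of the 25 lies beyond the end of FOXP2.

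POU3F2 (ENSG00000184486.10, chromosome 6 from 99282450 to 99287334), a factor used to turn other cells into neurons, had all of its 5 sites upstream, spread over 74.5 kb and none of them closer than 118 kb to its start. All had summits outside annotated genes, and POU3F2 had the nearest canonical start for each. Values below are those of the strongest peak over the site, first in replicate 1 and then in replicate 2, as the −log10 p of the peak and its fold enrichment over input DNA. The strongest, 183 kb upstream (chromosome 6 from 99098236 to 99099650), reached a −log10 p of 74.7 and 101 and an enrichment of 9.06-fold and 20.4-fold. The next was 192 kb upstream, from 99088170 to 99091151, and its summit lay 8.99 kb from that of the first. Its −log10 p was 66.1 and 102, and its enrichment 7.81-fold and 21.4-fold. These ranked 1001 and 1134 among all sites, ordered by −log10 p, and both were more than 2 times as enriched in replicate 2.

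The remaining POU3F2 sites were weaker. The site 118 kb upstream was enriched 6.87-fold and 10.1-fold. The sites 162 and 153 kb upstream lay 8.45 kb apart and ranked 4551 and 4938, near the bottom of the list. At the site 153 kb upstream the enrichment was 3.84-fold and 12.5-fold, a ratio of 3.27 that was the highest of the 25 sites. When the list was replaced by as many of the strongest peaks of replicate 1 alone, POU3F2 had 3 in place of 5.

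The 2 strongest POU3F2 sites are shown because they carry the MEIS core, which the other 3 lacked in the 500 bp at the summit. Sequences here and below are the GRCh37 plus strand, and capitals mark TGACAG or its reverse complement and, where present, the PBX-MEIS consensus TGANTGAC in either orientation.
POU3F2, 183 kb upstream, chr6:99098930-99098989: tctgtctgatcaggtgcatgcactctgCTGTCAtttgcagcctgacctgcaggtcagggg
POU3F2, 192 kb upstream, chr6:99089948-99090007: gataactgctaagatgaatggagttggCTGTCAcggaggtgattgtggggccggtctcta
The core lay 58 bp from the summit in the former and 46 bp in the latter, where the replicate summits were themselves 55 and 101 bp apart. Each window also held the FOX consensus TGTTTAC.

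POU3F3 (ENSG00000198914.5, chromosome 2 from 105469745 to 105475032) is a close relative of POU3F2 that is active with it in cortical progenitors. It was the only gene of the 7 with a reproducible site within 1 kb of its canonical start, and its 4 sites all lay within 66.6 kb upstream. The site at the start had its summit 107 bp upstream of it (105469868 to 105470867), and was enriched 5.98-fold and 13.2-fold, with a −log10 p of 34.7 and 42.0. The GC content of its window was 63.4%, the highest of the 25 sites. A site 6.90 kb upstream was stronger, at 8.12-fold and 17.1-fold with a −log10 p of 44.8 and 63.0.

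The strongest POU3F3 site lay 66.6 kb upstream (105403509 to 105404470), at a −log10 p of 66.5 and 87.6 and an enrichment of 9.74-fold and 19.4-fold. This site and the one 6.90 kb upstream lay within PANTR1, a long non-coding RNA gene beside POU3F3. The weakest, 63.8 kb upstream and also in PANTR1, is 3279 bp wide and ranked 4997. Its strongest peaks in the replicates had summits 1986 bp apart, whereas the median over the 25 sites was 7 bp. It was also the only one of the 25 whose −log10 p, 13.8, was not the lower of the values of its strongest peaks, 19.5 and 18.0.

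These POU3F3 sites are shown to set the strongest, which had no TGACAG in its window, beside those nearest to the gene. For the site at the start, 30 bases are given.
POU3F3, 66.6 kb upstream, chr2:105403963-105404022: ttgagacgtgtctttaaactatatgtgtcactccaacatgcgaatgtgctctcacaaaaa
POU3F3, 6.90 kb upstream, chr2:105463645-105463704: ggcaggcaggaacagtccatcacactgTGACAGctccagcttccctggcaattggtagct
POU3F3, at the start, chr2:105470603-105470632: acagagagcgaaCTGTCAgatcggagcgag
The core was 5 bp from the summit 6.90 kb upstream and 152 bp from the summit at the start, where the stretch shown overlaps an annotated untranslated region.

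POU3F1 (ENSG00000185668.8, chromosome 1 from 38509501 to 38512465), a regulator of progenitors and of myelinating cells, had 3 sites over 234 kb. The site 200 kb upstream (38711757 to 38713414) was enriched 6.46-fold and 12.2-fold with a −log10 p of 38.3 and 46.0. The site 39.4 kb upstream, in the non-coding gene MIR3659HG, was enriched 6.35-fold and 7.88-fold. The third lay 33.7 kb downstream of the POU3F1 start, but only 407 bp from the start of UTP11, a ribosome biogenesis factor, and inside that gene. Its enrichment was 7.30-fold and 9.94-fold. It is shown because its core sits 4 bp from the summit although the site is at the promoter of a neighbour.
POU3F1 window, in UTP11, chr1:38478787-38478846: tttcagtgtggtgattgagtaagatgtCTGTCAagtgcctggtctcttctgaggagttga

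POU2F1 (ENSG00000143190.23, chromosome 1 from 167190113 to 167396582), the widely expressed octamer-binding factor, had 4 sites of similar strength, ranked from 2191 to 3201. A pair lay 18.6 and 22.2 kb upstream of its start, 3.65 kb apart. The former (167171164 to 167171988) was enriched 7.10-fold and 13.0-fold, with a −log10 p of 34.7 and 43.6. The latter (167167265 to 167168510) was enriched 5.91-fold and 15.7-fold. A further site lay 11.5 kb into the gene, in intron 1, at 4.52-fold and 8.06-fold. The site 244 kb upstream lay in MAEL, a germline gene, and 1.30 kb from the start of ILDR2. Its enrichment was 5.02-fold and 11.7-fold. The site 22.2 kb upstream is shown as the member of the upstream pair with the core closer to its summit, at 44 bp.
POU2F1, 22.2 kb upstream, chr1:167167802-167167861: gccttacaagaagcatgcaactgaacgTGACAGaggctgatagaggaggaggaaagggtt

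FOXP2 (ENSG00000128573.28, chromosome 7 from 113726382 to 114333827), the speech-associated forkhead repressor, had the strongest sites of the 7 genes. The first, from 114495884 to 114497970, ranked 41 of 5169, at a −log10 p of 1099 and 867 and an enrichment of 58.3-fold and 118-fold. It lay beyond the end of FOXP2, 442 kb downstream of its canonical start and 65.4 kb upstream of the start of MDFIC, a modulator of transcription factors, which is its nearest gene. It had no TGACAG in its window.

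The second, from 113799961 to 113801574, ranked 227 and was the only site of the 25 whose enrichment was not higher in replicate 2, at 43.4-fold and 41.7-fold. Its −log10 p was 582 and 256. It lay inside FOXP2, in a part outside the canonical transcript and 254 kb upstream of the canonical start, but 2032 bp from the start of an annotated transcript. PPP1R3A, a glycogen-targeting phosphatase subunit of muscle, had the nearest canonical start, 242 kb away. The third was in intron 2, 35.7 kb downstream of the canonical start (114090067 to 114091133), enriched 18.3-fold and 21.9-fold at a −log10 p of 169 and 105.

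The remaining FOXP2 sites were weak, in introns 7 and 16, with ranks of 4590 and 4252. The former had a −log10 p of 15.9 and 19.7 and the latter of 22.1 and 17.3. MDFIC had the nearest canonical start to the latter, 251 kb away. When the list was replaced by as many of the strongest peaks of replicate 2 alone, FOXP2 had 3 in place of 5. The 3 strong sites are shown because they differ in the sequence at the summit.
FOXP2, beyond its end, chr7:114496729-114496788: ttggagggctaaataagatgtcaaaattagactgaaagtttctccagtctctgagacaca
FOXP2, upstream of the canonical start, chr7:113801034-113801093: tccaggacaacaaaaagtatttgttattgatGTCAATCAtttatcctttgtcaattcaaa
FOXP2, intron 2, chr7:114090573-114090632: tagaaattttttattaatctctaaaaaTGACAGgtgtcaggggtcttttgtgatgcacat
The first carries neither consensus, the second the PBX-MEIS consensus without TGACAG, and the third TGACAG 4 bp from the summit.

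FOXP1 (ENSG00000114861.24, chromosome 3 from 71003844 to 71633129), a forkhead repressor of neurons and lymphocytes, had 3 sites, all within introns in the downstream part of the gene. The strongest, in intron 7 (71159102 to 71160347) and 473 kb downstream of the canonical start, ranked 620, with near-equal −log10 p values of 114 and 115. Its enrichment was 14.4-fold and 27.1-fold. A weaker site lay 6.77 kb from it in the same intron, at 5.35-fold and 6.86-fold, and another in intron 9, at 4.30-fold and 9.03-fold. The strongest was 2102 bp from the start of an annotated transcript and the intron 9 site 3542 bp from one. Another protein-coding gene, ENSG00000285708, is annotated over the same positions. All 3 FOXP1 sites held TGACAG, and those in intron 7 are shown because it lay 6 bp and 0 bp from the summit.
FOXP1, intron 7, chr3:71159662-71159721: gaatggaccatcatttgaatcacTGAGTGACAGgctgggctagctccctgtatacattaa
FOXP1, intron 7, weaker site, chr3:71152884-71152943: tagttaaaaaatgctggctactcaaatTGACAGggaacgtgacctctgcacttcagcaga
In the stronger, the core overlaps the PBX-MEIS consensus.

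FOXP4 (ENSG00000137166.18, chromosome 6 from 41514119 to 41570122) encodes a forkhead factor that can pair with FOXP1 and FOXP2 and had its only site in intron 3, 32.1 kb downstream of its start (41545467 to 41546688). This site ranked 4406, enriched 4.68-fold and 9.51-fold, with a −log10 p of 16.7 and 26.2. Its core lay 122 bp from the summit, again overlapping the PBX-MEIS consensus, for which it is shown.
FOXP4, intron 3, chr6:41546021-41546080: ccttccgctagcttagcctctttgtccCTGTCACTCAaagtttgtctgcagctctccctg

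In strength, the 25 sites ran from near the bottom of the list to rank 41. Their median −log10 p was 33.8 (quartiles 17.1 and 66.1), beside 29.3 (19.0 and 58.1) for all 5169 sites. When all sites were ordered by strength and cut into 4 equal parts, 7 of the 25 were in the strongest and 8 in the weakest. The median fold enrichment was 6.35 in replicate 1 and 12.2 in replicate 2, beside 6.38 and 11.5 over all sites, and it was higher in replicate 2 at 24 of the 25 sites and at 97.4% of all sites. The bead wash may have differed between the replicates, and its part in this was not tested. The summits of the replicates were no more than 10 bp apart at 16 of 25 sites, with a median gap of 7 bp and a largest of 1986 bp. The same share over all sites is not given. Peak lists give no read counts, so the depth behind these values is unknown.

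**Figure D3:**
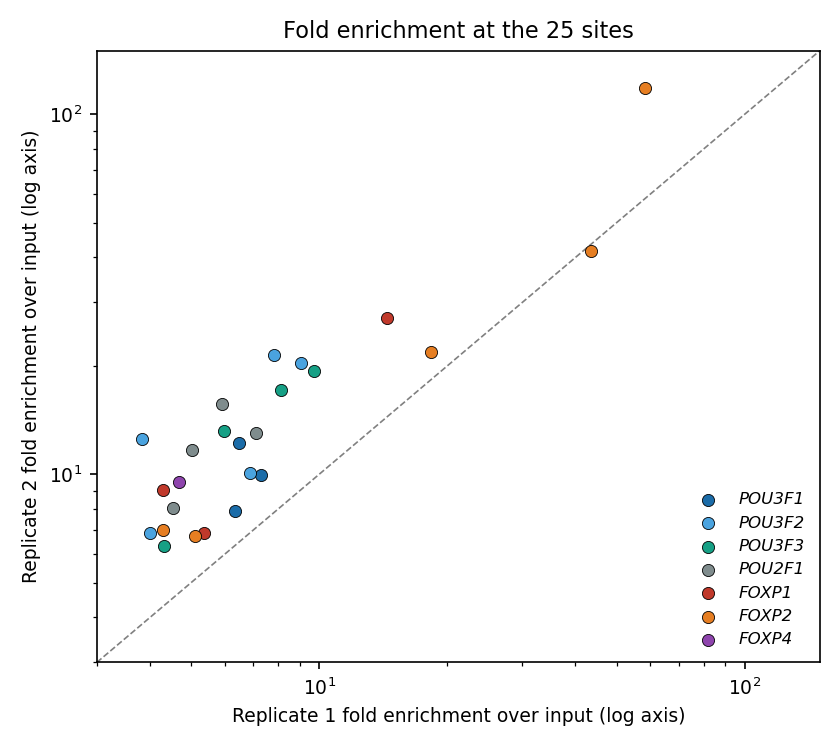
Fold enrichment over input in replicate 1 (horizontal, log axis) and replicate 2 (vertical, log axis) at each of the 25 sites, coloured by gene; the dashed line marks equal values. At 24 sites the point lies above the line, and the FOXP2 sites reach 118.

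A neighbouring reproducible site no more than 10 kb away was found for 12 of the 25 (48.0%), beside 11.5% of all sites. These were 4 at POU3F2, 4 at POU3F3, 2 at POU2F1 and 2 at FOXP1, while POU3F1, FOXP2 and FOXP4 had none. Both sites of a pair were counted, and like windows were not compared. The genes were chosen with earlier results of these data known, so this share is not independent of the choice. At POU3F3, a pair 2.79 kb apart includes the site whose replicate summits lay 1986 bp apart. How far the sites lay from a start depended on the starts counted. At 15 of 25 sites (60.0%) the nearest canonical start of a protein-coding gene was more than 50 kb away, beside 67.1% of all sites. Counted to the start of any annotated transcript of any gene, 6 of 25 were that far (24.0%), beside 17.3% of all sites. These were the 5 POU3F2 sites and the site beyond the end of FOXP2. Within 5 kb of a canonical start there were 3 of 25, beside 8.43% of all, at the starts of POU3F3, UTP11 and ILDR2, and within 5 kb of any annotated start there were 9 of 25 (36.0%), beside 29.0%.

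Each replicate called many more peaks at these genes than entered the list. The same held over the whole series, where 36796 and 47449 peaks stood beside 5169 reproducible sites. Whole-series shares for the split below are not given. In replicate 1, 26 of the 120 peaks overlapped a reproducible site, 47 were outside the list but overlapped a replicate 2 peak, and 47 were called in replicate 1 alone. In replicate 2, 25 of 158 were in the list, 48 were shared outside it and 85 were alone. FOXP1 had the most peaks, 27 in replicate 1 and 38 in replicate 2. In each, 13 were shared but not in the list. FOXP1 also has the longest body of the 7 genes. Its comparison genes of like length had medians of 14.5 and 20.5 peaks, and 20 and 16 of them had as many or more. POU3F2, with 17 and 26 peaks, was matched or passed by 4 and 1 of its comparison genes. FOXP4, with 10 and 9 peaks, was matched or passed by 54 and 105 of its own. At POU3F1 the ratio between the replicates was the highest, with 7 peaks in replicate 1 and 15 in replicate 2.

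**Figure D4:**
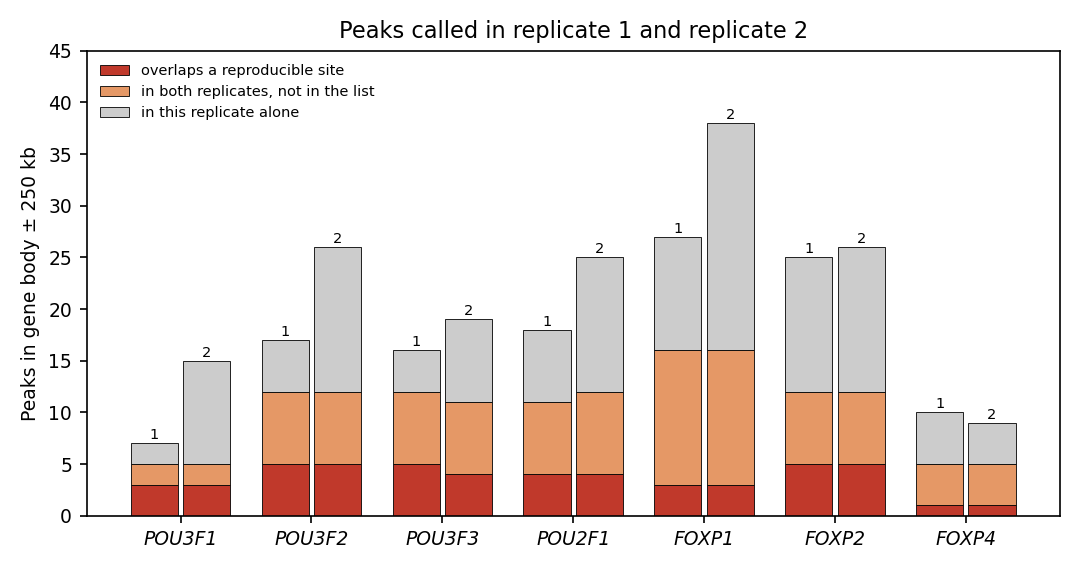
Number of peaks in the gene body extended by 250 kb on each side (vertical axis) in replicate 1 (left bar of each gene) and replicate 2 (right bar), split into peaks that overlap a reproducible site, peaks found in both replicates but not in the list, and peaks of that replicate alone. The FOXP1 bars are the tallest, at 27 and 38, with 3 peaks each in the list.

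Among the shared peaks outside the list, the highest −log10 p in the weaker replicate was 14.5, at a peak in intron 2 of FOXP4 (chromosome 6 from 41537053 to 41538036) with 24.4 and 14.5. A peak inside FOXP2, 232 kb upstream of its canonical start, came to 17.3 and 14.5. At POU3F2, such a peak lay in the untranslated part of the only exon of its canonical transcript (99284834 to 99285271), at a −log10 p of 6.35 and 28.7. POU3F2 also had a peak within 1 kb of its start in both replicates, at 7.26 and 4.89. Peaks within 1 kb of the canonical start were called in replicate 1 alone at POU2F1, FOXP2 and FOXP4, with a −log10 p from 2.81 to 3.70. FOXP1 had one in replicate 2 alone, at 5.38, and POU3F1 had none in either replicate.

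The sequence at the sites was described by short consensuses searched on both strands in the 500 bp centred on the summit. TGACAG was present at 14 of 25 sites (56.0%, Wilson 95% interval 37.1 to 73.3), beside 58.3% of all sites, and was centred within 50 bp of the summit at 9 (36.0%), beside 39.5%. By family, it was at 8 of 16 sites of the POU genes and 6 of 9 of the FOXP genes. The PBX-MEIS consensus TGANTGAC, which can overlap TGACAG, was at 6 sites (24.0%) beside 18.4% of all, of which 4 were at FOXP genes. Of the 11 sites without TGACAG, 8 had the shorter TGACA within 50 bp of the summit, beside 52.7% of all sites without TGACAG. With the sites that held TGACAG included, TGACA was this close at 18 of 25 (72.0%), beside 70.5% of all sites.

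The families to which the genes belong have consensuses of their own. The POU octamer ATGCAAAT was at 3 of 25 sites (Wilson interval 4.17% to 30.0%), beside 5.75% of all sites. All 3 were among the 16 sites at POU genes (interval 6.59% to 43.0%), with 0 of 9 at FOXP genes (0% to 29.9%). They were the site 200 kb upstream of POU3F1 and the sites 18.6 kb upstream and in intron 1 of POU2F1. The shorter TAATGA was at 9 sites (36.0%) beside 33.8%. The FOX consensus TGTTTAC was at 4 of 25 sites (6.40% to 34.7%), beside 7.78%, which were the 2 strongest POU3F2 sites, the POU3F3 start and intron 9 of FOXP1. The SOX consensus ACAAAG was at 11 of 25 sites beside 52.6% of all, and the TEAD consensus GGAATG at 9 of 25 beside 38.2%. For all 7 consensuses the share over all sites lay within the interval of the 25. By family, it fell below the interval only for the octamer at POU genes and for PBX-MEIS at FOXP genes. In each case it lay close to the lower bound. PBX-MEIS was at 4 of 9 FOXP sites (18.9% to 73.3%), beside 18.4% of all. All 7 consensuses were looked at in both families, with no allowance for the number of comparisons. These intervals cover the number of sites alone, and sites are not replicates.

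**Figure D5:**
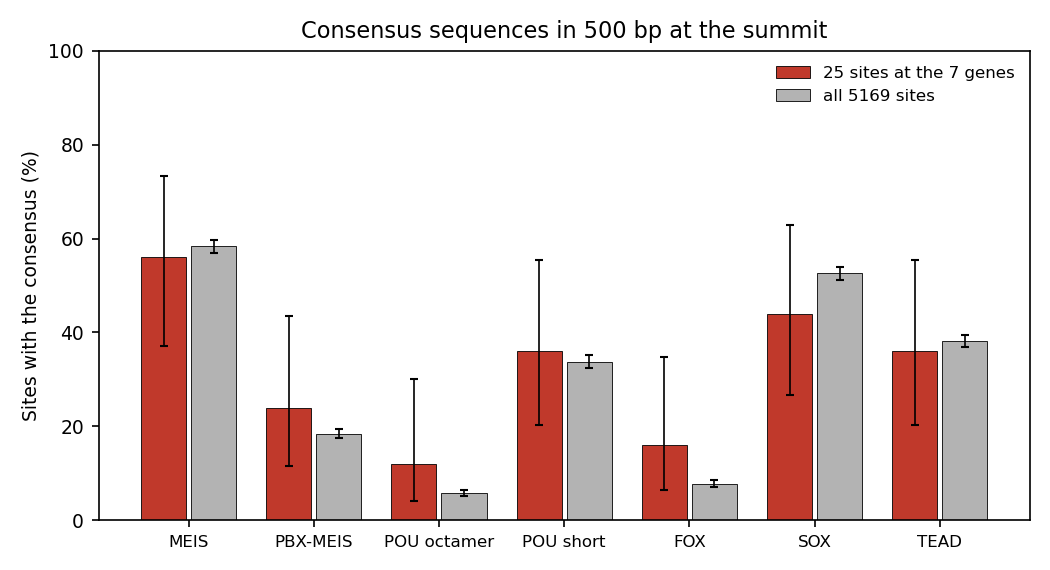
Share of sites with each consensus in the 500 bp at the summit (vertical axis, percent), for the 25 sites at the 7 genes (red) and all 5169 sites (grey), with Wilson 95% intervals as error bars. The grey bars lie within the red intervals for all 7 consensuses. POU short is the shorter POU consensus named above.

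Relatives of the 7 genes, from lists that need not hold every gene of either family, were counted in the same way. Of the 11 other POU genes listed, 7 had at least 1 site and 1 had at least 3. POU5F2 had the most, with 11 sites of which 9 had it as their nearest start, and POU4F3 had 2, both nearer to other genes. POU3F4, the only other gene of the POU3F class, had 0 sites, with 5 peaks in replicate 1 and 3 in replicate 2. Of the 41 other FOX genes listed, 14 (34.1%) had at least 1 site and 2 had at least 3. FOXB1 had 4 sites, all with FOXB1 as the nearest start, FOXJ2 had 3 and FOXL2 had 2, with none nearest to either. The percentages of all protein-coding genes given above, 47.5% for at least 1 site and 8.68% for at least 3, apply here too.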

How the data were processed

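Binding was measured by ChIP-seq in 2 MEIS ChIP samples of hNSC, each with an Input sample, and samples were grouped by title. The authors trimmed reads of 36 bp with cutadapt 1.16, mapped them to GRCh37 with bowtie2 2.3.0, filtered the alignments in SAMtools 1.2 (mapping quality 30 or above) and discarded duplicates by Picard 2.15.0, so sites in near-identical repeats can be missed. Peaks were called by the authors in each replicate against input with MACS2 (version not given in the sources used here) at a p-value of 0.01, and IDR 2.0.3, which keeps peaks whose ranks hold up in both replicates, gave the reproducible sites.

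The deposited replicate lists give fold enrichment over input (a linear ratio) and −log10 p of each peak, and the deposited list of sites gives −log10 p, the global IDR as a −log10 score, a scaled score that was not used, and the summit. Its 8 columns of per-replicate values were not used. The values of a site in a replicate are those of the strongest overlapping peak (at least 1 bp). Which of the wash protocols in the study's methods each replicate received is not stated, and the methods name 2 batches of cells handled in parallel. The lists hold no read counts, so the depth is unknown.

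A feature was counted where its summit lay in the gene body extended by 250 kb (GENCODE 44, Python 3.11.15). All peaks lay within the GRCh37 chromosomes. A canonical start is that of the canonical transcript, which 281 of 20162 protein-coding genes lacked. Wilson intervals came from SciPy 1.17.1. The counting and motif search were tested on simulated data. The design offers no contrast of conditions, so no test was made. Alternatives were other extensions, window lengths, numbers of comparison genes and thresholds, and each replicate alone. The genes, lists and consensuses were chosen with earlier results of these data known. Every site of each gene was described, with the nearest gene, and the 3 POU and 3 FOX relatives with the most sites were to be named, of which 1 is not reported here. The shorter TGACA, the comparison with gene-poor windows and the naming of POU3F4 were chosen after seeing the data.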

Additional observations from a re-analysis of the deposited data

How the results depend on the processing

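No paired analysis was possible because peaks are given for ChIP libraries alone, each already set against Input. Of 97 alternative values, 66 kept within 1.5 times the reported count or within its 95% interval and 31 did not. The 25 sites became 10 in the gene bodies alone and 15 at an IDR of 0.001 or less, and 51 where peaks of both replicates past 5 on the −log10 p scale overlapped. They numbered 23 to 25 with 1 replicate alone, and 20 with only sites nearest to the gene, an alternative chosen after seeing the data. The 120 replicate 1 peaks became 47 in gene bodies alone, 183 with 500 kb and 64 past the same −log10 p of 5. The 158 replicate 2 peaks became 54, 246 and 86. At 100 kb, POU3F2 had 0 sites in place of 5. At an IDR of 0.001 or less, FOXP4 had 0, FOXP1 1, and POU3F2 and FOXP2 3 each. FOXP4 had 2 sites without replicate 2. The share with TGACAG was 56.0% to 56.5% with 1 replicate alone. The causes of these changes were not tested. Unknown depth limits the comparison of fold enrichment and of peak numbers between replicates.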
